A study of Mus musculus with 8 samples.

Results

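Integrins, their immunoglobulin-type ligands and tetraspanins are the adhesion machinery of the B cell surface. All genes of the table with the symbol of an integrin α or β subunit, an ICAM, Vcam1, a numbered Tspan or one of the tetraspanins Cd9, Cd37, Cd53, Cd63, Cd82 and Cd151 were taken, without regard to their values. This gave 57 of the 39017 genes in the table, made up of 18 α subunits, 8 β subunits, 5 ligands (Icam1, Icam2, Icam4, Icam5 and Vcam1) and 26 tetraspanins. Integrins are heterodimers of an α and a β chain that bind matrix proteins or ligands on other cells once talin and kindlin engage the β tail. Lymphocytes use the β2 integrin LFA-1 (αL with β2) to bind ICAMs, and α4β1 and α4β7 to bind VCAM-1 and MAdCAM-1. Tetraspanins are small membrane proteins that gather integrins, immunoglobulin superfamily proteins and proteases into microdomains.

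The study asked what the loss of Prmt5, the arginine methyltransferase that makes symmetric dimethylarginine, does to gene expression in germinal center (GC)-like B cells. Splenic B cells of C57BL6/J mice were grown with 1 ng/mL IL-4 on 40LB cells, a fibroblast line made to express CD40L and BAFF, and the resulting iGBs were taken off the feeders by elutriation on day 4. Prmt5 F/F Cγ1-cre cultures (Prmt5-null, n = 4) lost Prmt5 upon activation, because Cγ1-cre is switched on with transcription of the IgG1 constant region. Cγ1-cre cultures (control, n = 4) carried the same Cre with intact Prmt5. The libraries carry the names PRMT5-10617, PRMT5-10618, PRMT5-10770 and PRMT5-10771 (Prmt5-null) and CTRL-10370, CTRL-10596, CTRL-10597 and CTRL-10650 (control), and values by library follow this order throughout. The study used mice of both sexes aged 2 to 4 months, and the labels do not give the age or sex behind a library. The cultures came from 2 experiments with 2 libraries of each genotype in each, but which libraries belong together is not labelled. The libraries held from 36731721 to 50366174 reads on genes. Prmt5 had 1060 to 1994 normalized counts in Prmt5-null libraries and 11084 to 13088 in control libraries, so each library matched its label. All 8 B cell markers examined had a mean above 10 normalized counts. Of 9 T and NK cell markers, 1 had such a mean, namely Lck (303.6 to 780.3 over all libraries), and 1, Cd3e, was at 0 in all libraries.

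Values are normalized counts, that is reads on the exons of a gene divided by the size factor of the library. Of the 57 genes, 39 had a mean of at least 10 normalized counts and were tested, comprising 10 of 18 α subunits, 6 of 8 β subunits, 5 of 5 ligands and 18 of 26 tetraspanins. The other 18 genes are described at the end of this section. A gene is said to rise or fall where limma gave a Benjamini-Hochberg adjusted p under 0.05 over all 16250 genes tested and a change of at least 1.5-fold. Log2 fold changes are Prmt5-null minus control on the log2(normalized count + 1) scale, with their standard error (SE). In RNA from a whole culture, fewer cells of a type and less RNA per cell cannot be told apart.

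Tetraspanins were the most abundant of these transcripts per length of exon in control iGBs, with Cd53, a pan-leukocyte tetraspanin, far ahead. Cd53 had 9262 ± 379 normalized counts per kb of exon (SD, n = 4), and even its lowest control library (8892) exceeded all libraries of the other genes of the group. Cd82 (2181 ± 122 per kb), a tetraspanin that binds integrins and restrains motility, and Cd37 (2173 ± 285 per kb), a B cell tetraspanin needed for α4β1 clustering, came next and did not differ beyond their spread. Tspan31 (1821 ± 140 per kb) and Tspan13 (1502 ± 173 per kb), both with less well defined roles, bracketed Itgb2 (1610 ± 84.2 per kb), the β2 chain, and their ranges overlapped that of Itgb2. The next genes down were Icam1 at 1256 ± 86.1 per kb, Itgb1, the β1 chain, at 1184 ± 58.6 per kb, and Itgb3, the β3 chain, at 924 ± 198 per kb, again with overlapping ranges. Itgal, the αL chain, followed at 651 ± 109 per kb, and Itgav, Itga4 and Itga6 lay between 139.9 and 258 per kb. The means of Itgb1, Itgb2 and Itgb3 thus stood above that of every α chain, although the ranges of Itgb3 and Itgal overlapped.

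**Figure D1:**
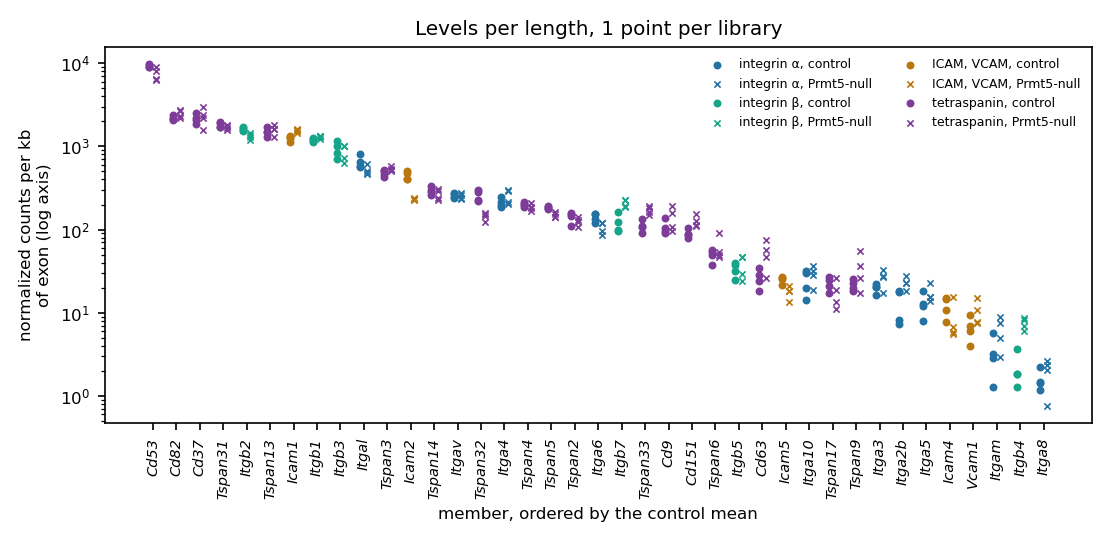
Levels of the 39 genes tested, as normalized counts per kb of merged exon on a log axis, ordered by the control mean, with 1 point per library (dots control, crosses Prmt5-null) and colors for α subunits, β subunits, ligands and tetraspanins. Cd53 stands alone at the top, and the genotypes part most visibly at Icam2, Tspan32, Itgb7 and Itgb4.

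Prmt5-null iGBs differed from control iGBs in few of these genes. Itgb4, Itgb7 and Tspan33 rose (3 of 39 tested, 7.69%, where 3.49% of all genes tested rose), and Icam2 and Tspan32 fell (2 of 39, 5.13%, where 2.99% of all genes fell). Icam1 and Cd151 were higher and Itgb2 and Tspan5 lower at an adjusted p under 0.05 without reaching 1.5-fold, which makes 5 higher and 4 lower at any fold, against 6.51% and 7.33% of all genes tested. None of the 10 α subunits tested had an adjusted p under 0.05. With the experiment as a block, fitted for each of the 18 ways to divide the libraries evenly between the experiments (an alternative chosen after seeing the data), all 5 genes were called every time. The median log2 fold change of the 39 genes was 0.13 and that of all genes tested 0.00, with 23 values above 0 and 16 below.

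**Figure D2:**
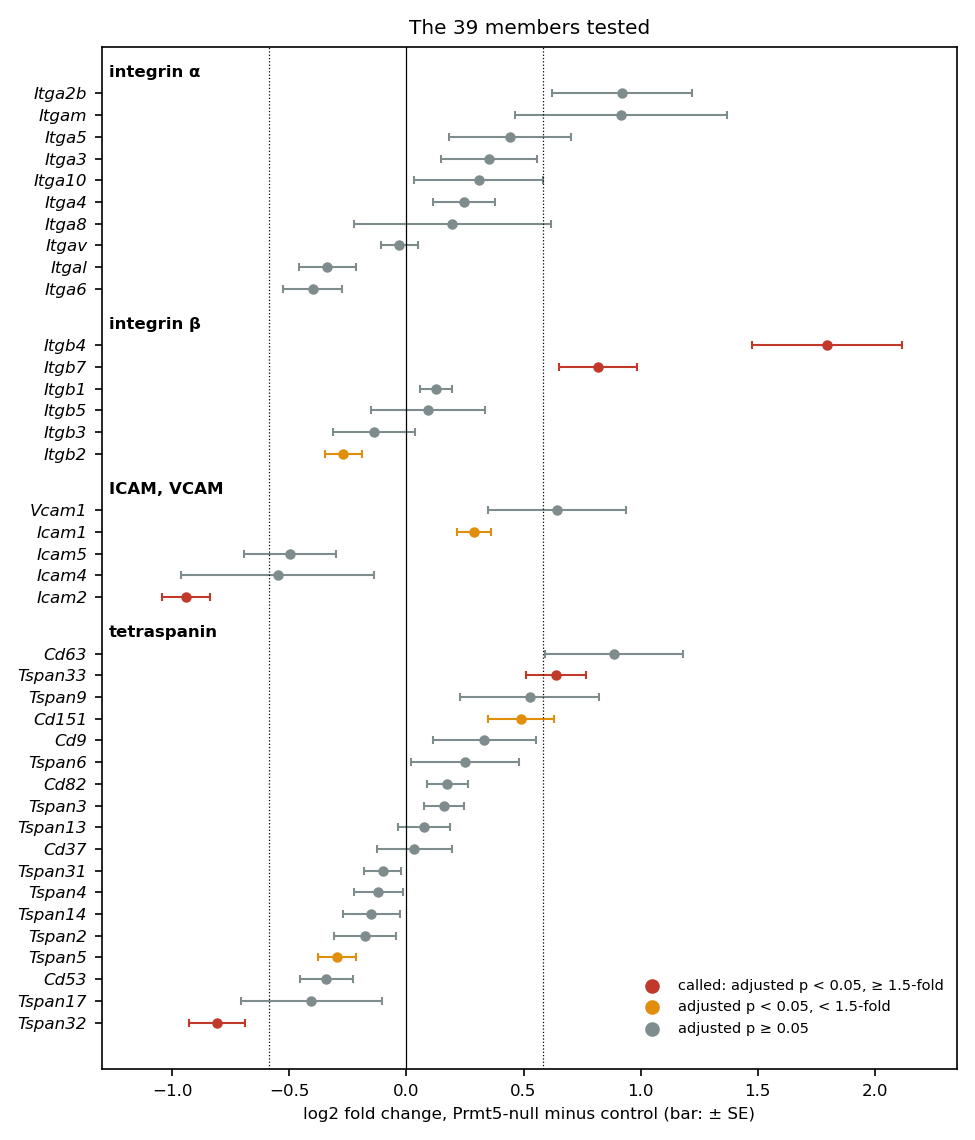
Log2 fold change (Prmt5-null minus control, x axis) of each of the 39 genes tested, with bars of ± SE from limma and dotted lines at 1.5-fold. Red marks an adjusted p under 0.05 with at least 1.5-fold, orange an adjusted p under 0.05 below that fold, and gray the rest. Red points are seen for 2 β subunits, 1 ligand and 2 tetraspanins, and for no α subunit.

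The groups did not overlap for 10 of the 39 genes, 5 with all Prmt5-null libraries above all control libraries (9.67% of all genes tested) and 5 with all below (10.2%). These were the 9 genes with an adjusted p under 0.05 and Icam5. Complete separation fixes the exact permutation p (two-sided, 4 libraries against 4) at 0.0286, the smallest this design allows. For each of the 10 it restates that the groups do not overlap and is no further result.

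**Figure D3:**
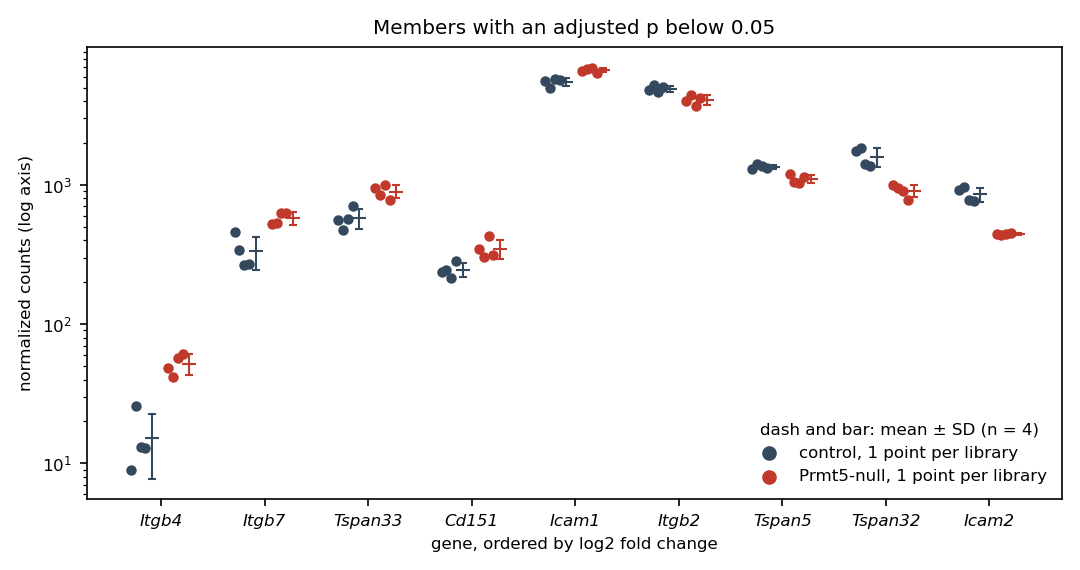
Normalized counts (log axis) of the 9 genes with an adjusted p under 0.05, with 1 point per library and a dash and bar for the mean ± SD (n = 4). The genotypes do not overlap for any of the 9, and the 4 Prmt5-null libraries of Icam2 lie almost on top of each other.

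The LFA-1 ligands Icam1 and Icam2 went in opposite directions. Icam2, constitutively expressed on leukocytes and endothelium (chr11:106377656-106388075 of GRCm38, minus strand), had 445, 435, 443 and 452 normalized counts in Prmt5-null libraries and 914, 965, 777 and 768 in control libraries. Every Prmt5-null library was thus below every control library, and the Prmt5-null values lay close together. Icam2 fell by 0.94 on the log2 scale (SE 0.10, adjusted p = 0.000186 from limma), or 1.92-fold, and the 8 fits that each omit a library gave values from -0.99 to -0.88. Icam1, which is induced by CD40 and NF-κB signals in B cells, had 6612, 6770, 6957 and 6385 normalized counts in Prmt5-null and 5526, 4937, 5783 and 5662 in control libraries. All Prmt5-null values were above all control values, but the difference was small, with a log2 fold change of 0.29 (SE 0.07, adjusted p = 0.0216 from limma), and without CTRL-10596 its adjusted p was 0.0678. Of the exon bases of Icam1, 11.7% are shared with a gene on the opposite strand. The ratio of Icam1 to Icam2 per kb was 6.17 to 6.87 in Prmt5-null and 2.23 to 3.25 in control libraries. That these ranges do not overlap follows from the values of both genes and is no further result.

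The other ligands were scarce. Vcam1, the ligand of α4β1, had 69.4, 66.4, 133 and 96.2 normalized counts in Prmt5-null and 34.9 to 84.0 in control libraries, with overlap and a log2 fold change of 0.64 (SE 0.29, adjusted p = 0.17 from limma). Icam5, best known from neurons, was lower in every Prmt5-null library (40.0 to 61.1) than in every control library (64.2 to 79.7) and did not pass limma (log2 fold change -0.50, SE 0.20, adjusted p = 0.119). Icam4, the erythroid ICAM, was at 6.13 to 17.3 and 8.62 to 16.9 normalized counts. The exons of Icam4 and 30.8% of those of Icam5 are shared with genes on the opposite strand, and the strand setting of the counting was not given, so the reads of Icam4 and Icam5 are not certain to be theirs.

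Of the LFA-1 chains, Itgb2 just passed the adjusted p and Itgal did not. Itgb2 had 3978, 4454, 3678 and 4208 normalized counts in Prmt5-null and 4784, 5203, 4626 and 5036 in control libraries. The genotypes did not overlap, but the log2 fold change was -0.27 (SE 0.08, adjusted p = 0.041 from limma), and when single libraries were omitted the adjusted p was under 0.05 only without PRMT5-10618 (0.0261) and from 0.0546 to 0.114 otherwise. Itgal had 3123, 3332, 3018 and 4019 normalized counts in Prmt5-null and 3836, 4215, 3740 and 5308 in control libraries, where 1 Prmt5-null library reached into the control range (log2 fold change -0.34, SE 0.12, adjusted p = 0.0879 from limma). Itgal over Itgb2 per kb was 0.348 to 0.444 in Prmt5-null and 0.372 to 0.490 in control libraries, so the ratio of the LFA-1 chains overlapped between genotypes.

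The other α partners of β2 were near the limit of the data. Itgam, the αM chain of macrophages, had 14.8, 37.8, 24.9 and 44.8 normalized counts in Prmt5-null and 28.5, 16.1, 14.2 and 6.46 in control libraries, with overlap (log2 fold change 0.92, SE 0.45, adjusted p = 0.203 from limma). Of its exon bases, 68.7% lie in another gene as well. Itgax, the αX chain of dendritic and age-associated B cells, had 5.55 to 19.5 and 5.35 to 9.48 normalized counts and was too low to be tested. Itgad, the αD chain, had 12.0, 16.3, 11.9 and 5.61 normalized counts in Prmt5-null libraries and at most 4.48 in control libraries, where 1 library was at 0. Its genotypes did not overlap, but it was too low to be tested, 19.7% of its exon bases are shared with other genes, and it is named here because of its values. Adgre1 (Emr1 in the table), a macrophage gene, rose (134 to 200.1 normalized counts in Prmt5-null and 71.1 to 123 in control libraries, log2 fold change 0.70, adjusted p = 0.0424 from limma). The sum of 9 myeloid markers was 683 to 888 in Prmt5-null and 671 to 725 in control libraries. Most of it was Cd68, with means of 532.7 and 559.1 (log2 fold change -0.09). Lyz2 averaged 45.4 and 32.4, and S100a8 and S100a9 were at 0 in all libraries. The part of such cells in the values of Itgam and Itgad was not tested.

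Itgb7, the β chain of the gut-homing integrin α4β7 and of αEβ7 (chr15:102215995-102231944 of GRCm38, minus strand), rose while its partner Itga4 did not pass the test. Itgb7 had 520.3, 534, 631 and 625 normalized counts in Prmt5-null libraries and 457, 342, 265 and 271 in control libraries. The control library nearest to the Prmt5-null range was CTRL-10370, and the other controls were well below it. The log2 fold change was 0.82 (SE 0.17, adjusted p = 0.00709 from limma), or 1.76-fold, and omitting any one library left it between 0.72 and 0.98 with an adjusted p of at most 0.0279. Itga4, the α4 chain shared by α4β1 and α4β7, had 2867, 4016, 2971 and 4200 normalized counts in Prmt5-null and 2980, 2602, 3407 and 2755 in control libraries. Its 2 highest libraries were Prmt5-null and the ranges overlapped, with a log2 fold change of 0.25 (SE 0.13, adjusted p = 0.247 from limma).

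Because β1 and β7 compete for α4, their shares were also set side by side. Itgb1 had 5380, 5224, 5450 and 5045 normalized counts in Prmt5-null and 4732, 4553, 4951 and 5096 in control libraries, an overlap of 1 library of each genotype (log2 fold change 0.13, SE 0.07, adjusted p = 0.241 from limma). Itgb7 made up 12.5% to 15.4% of the sum of Itgb1 and Itgb7 per kb in Prmt5-null libraries and 7.28% to 12.4% in control libraries, so the shares came close but did not overlap. This follows from the values of Itgb7 and Itgb1 and is no further result. Itgae, the αE chain that pairs with β7 to bind E-cadherin, was at 5.10 to 13.0 and 3.57 to 7.11 normalized counts and was too low to be tested.

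None of the 7 tested genes among the RGD-binding integrins and β1 had an adjusted p under 0.05, and Itgav and Itgb3 were the most abundant of them beside Itgb1. Itgav, the αV chain, had 2525, 2780, 2609 and 2945 normalized counts in Prmt5-null and 2606, 2670, 2870.0 and 2936 in control libraries, with a log2 fold change of -0.03 (SE 0.08, adjusted p = 0.836 from limma). Itgb3, the β3 chain of αVβ3 and of the platelet integrin αIIbβ3, varied more between libraries, with 3739 to 5945 in Prmt5-null and 4206 to 6873 in control libraries (log2 fold change -0.14, SE 0.17, adjusted p = 0.643 from limma). Itgb3 was 26.1 to 44.6 times as high per kb as Itga2b, the αIIb chain, in Prmt5-null libraries and 46.7 to 120 times in control libraries.

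Itga2b had 151, 126, 98.5 and 123 normalized counts in Prmt5-null and 40.1, 99.5, 96.0 and 45.2 in control libraries. Only 1 pair of libraries crossed, but the log2 fold change of 0.92 (SE 0.30) did not pass the test (adjusted p = 0.0612 from limma). It passed with DESeq2 (adjusted p = 0.0325) and not with edgeR (adjusted p = 0.0838), and it passed limma without CTRL-10596 (0.0403) or CTRL-10597 (0.042). With the experiment as a block it passed in 4 of the 18 possible placements of the libraries (adjusted p from 0.0103 to 0.0881 in limma). Itga2b was not named by the rule for naming genes and is given here because of its value. The sum of 6 platelet and megakaryocyte markers was 18.4 to 30.6 normalized counts in Prmt5-null and 18.3 to 36.7 in control libraries. The part of platelets or megakaryocytes in the values of Itga2b was not tested. Itga5, the fibronectin receptor chain that pairs with β1, had 68.2 to 113 and 39.2 to 89.4 normalized counts, with overlap (log2 fold change 0.44, SE 0.26, adjusted p = 0.285 from limma).

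Itgb4, the β chain that pairs only with α6 to form the laminin receptor of hemidesmosomes (chr11:115974709-116008412 of GRCm38, plus strand), had the largest fold change of the 39 genes tested, from a low level. It had 48.1, 41.9, 57.3 and 60.7 normalized counts in Prmt5-null libraries and 8.92, 26.0, 13.0 and 12.9 in control libraries. The lowest Prmt5-null library was above the highest control library, and 3 of the 4 controls were at 13.0 or below. The log2 fold change was 1.80 (SE 0.32, adjusted p = 0.00379 from limma), or 3.47-fold, and it ran from 1.59 to 2.07 as each library was omitted. Itga6, its only partner, had 1096, 785, 1093 and 874 normalized counts in Prmt5-null and 1386, 1089, 1370 and 1204 in control libraries. With 2 Prmt5-null libraries just above the lowest control, it did not pass the test (log2 fold change -0.40, SE 0.13, adjusted p = 0.0558 from limma), and its adjusted p was under 0.05 without PRMT5-10617 (0.0494) or PRMT5-10770 (0.0296) and with DESeq2 (0.0271), each time under 1.5-fold. Itga6 was 11.2 to 17.7 times as high as Itgb4 per kb in Prmt5-null libraries and 32.6 to 121 times in control libraries, which follows from the values of both genes and is no further result. Of the exon bases of Itgb4, 7.66% are shared with a gene on the opposite strand.

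The collagen and laminin chains Itga3 and Itga10 and the αVβ5 chain Itgb5 had means of 114 to 124 normalized counts in control and 130.5 to 151 in Prmt5-null libraries, with overlap, and Itga8 was at 11.7 and 14.4. Their log2 fold changes ran from 0.09 to 0.35 with adjusted p values from 0.281 to 0.836 in limma, and 33.5% of the exon bases of Itga10 lie in another gene on the same strand.

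Among the tetraspanins, Tspan33 rose and Tspan32 fell. Tspan33 belongs to the TspanC8 group, which escorts the protease ADAM10 to the surface, and marks activated B cells (chr6:29694222-29718559 of GRCm38, plus strand). It had 944, 850.4, 1001 and 785 normalized counts in Prmt5-null and 562, 476, 569 and 704 in control libraries. All Prmt5-null libraries were above the controls, the nearest pair being 785 and 704. The log2 fold change was 0.64 (SE 0.13, adjusted p = 0.00648 from limma), or 1.56-fold, just above the threshold of 1.5-fold, and without PRMT5-10770 (0.58) or CTRL-10596 (0.55) it no longer reached that fold while its adjusted p stayed at 0.0123 and 0.022.

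None of the other TspanC8 genes rose. Tspan5 had 1192, 1046, 1032 and 1131 normalized counts in Prmt5-null and 1293, 1407, 1372 and 1324 in control libraries, lower in every Prmt5-null library, with a log2 fold change of -0.30 (SE 0.08, adjusted p = 0.0321 from limma). With a library left out, the adjusted p of Tspan5 was under 0.05 only without PRMT5-10617 (0.0332) and ran from 0.0512 to 0.0889 otherwise. Tspan14 (log2 fold change -0.15) and Tspan17 (-0.41) overlapped between genotypes, and Tspan10 and Tspan15 were too low to be tested. Adam10 itself was at 1958 normalized counts on average in Prmt5-null and 2210 in control libraries, and did not pass the test (log2 fold change -0.17, adjusted p = 0.3 from limma).

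Tspan32, also known as TSSC6, is a tetraspanin of blood cells that restrains T cell proliferation (chr7:143005046-143019644 of GRCm38, plus strand). It had 989.7, 956, 902 and 775 normalized counts in Prmt5-null and 1757, 1848, 1414 and 1359 in control libraries. The highest Prmt5-null library was well below the lowest control. Tspan32 fell by 0.81 on the log2 scale (SE 0.12, adjusted p = 0.00118 from limma), or 1.75-fold, and omission of single libraries gave values from -0.88 to -0.73. An opposite-strand gene shares 4.35% of its exon bases.

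Tspan32 also differed in splicing. The deposited splicing tables, which list only events that the authors selected as changed, held 4 events in 3 of these genes (Tspan32, Cd82 and Cd151). Among the genes with a mean above 50 normalized counts, 3 of 34 (8.82%) had such an event, against 11.4% of all 13300 genes at that level. The tables give 4 inclusion levels per genotype without naming the library, so they are described without a test, and the order of genotypes was taken from the study's account of exon skipping. Inclusion is the share, from 0 to 1 and corrected for length, of the form with the exon among reads across the splice junctions and on the alternative exon itself.

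In Tspan32 the exon concerned is 84 bases long, at chr7:143017201-143017284 of GRCm38 on the plus strand, and lies in the coding sequence. Its inclusion was 0.589, 0.603, 0.680 and 0.728 in control libraries and 0.253, 0.303, 0.328 and 0.366 in Prmt5-null libraries, in rising order. Inclusion was thus above 0.5 in each control library and below it in each Prmt5-null library, with means of 0.650 and 0.312 from 494 and 213 reads (96 to 163 and 45 to 61 per library). The exon is shown here in capitals between the exon before it and the exon after it, joined as in the GENCODE transcript Tspan32-201, because skipping removes exactly the capitals.
Tspan32 with the exon: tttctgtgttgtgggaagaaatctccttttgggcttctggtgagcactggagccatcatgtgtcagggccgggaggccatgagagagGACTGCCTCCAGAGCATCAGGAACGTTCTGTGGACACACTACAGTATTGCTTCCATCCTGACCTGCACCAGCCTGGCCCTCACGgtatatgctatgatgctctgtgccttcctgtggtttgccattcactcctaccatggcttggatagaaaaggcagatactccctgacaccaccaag

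The exon is 57.1% G and C, against 54.0% in the 87-base exon before it and 48.4% in the 95-base exon after it. Because 84 is a multiple of 3, transcripts without the capitals keep the reading frame of the exons around them. The second Tspan32 event pits the same exon against the 87-base exon before it (chr7:143015581-143015667) as mutually exclusive. Inclusion of the 87-base exon in place of the 84-base exon was 0.314, 0.367, 0.428 and 0.476 in control and 0.619, 0.672, 0.721 and 0.785 in Prmt5-null libraries, from 277 and 147 reads. The genotypes did not overlap, and since both events count reads of the 84-base exon, they are not independent. Of the 12 Tspan32 transcripts that GENCODE annotates, 3 hold both exons, 5 only the 87-base exon, 1 only the 84-base exon and 3 neither, so forms without the 84-base exon are annotated.

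Cd82 differed in splicing without a called change in level. A 76-base exon in its 5′ untranslated region (chr2:93443369-93443444 of GRCm38, minus strand) had inclusion levels of 0.866, 0.871, 0.880 and 0.898 in control and 0.619, 0.634, 0.660 and 0.713 in Prmt5-null libraries. With 1713 and 1682 reads this is the best covered of the 4 events, and the genotypes were far apart. In gene level Cd82 had 7921, 6544, 8284 and 6952 normalized counts in Prmt5-null and 6444, 6209, 6495 and 7072 in control libraries, with overlap (log2 fold change 0.18, SE 0.09, adjusted p = 0.207 from limma). The fourth event, alternative 5′ splice sites of Cd151, spread from 0 to 0.363 in control and from 0.204 to 1.0 in Prmt5-null libraries on 59 and 74 reads, as few as 3 in a library, and its ranges overlapped.

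**Figure D4:**
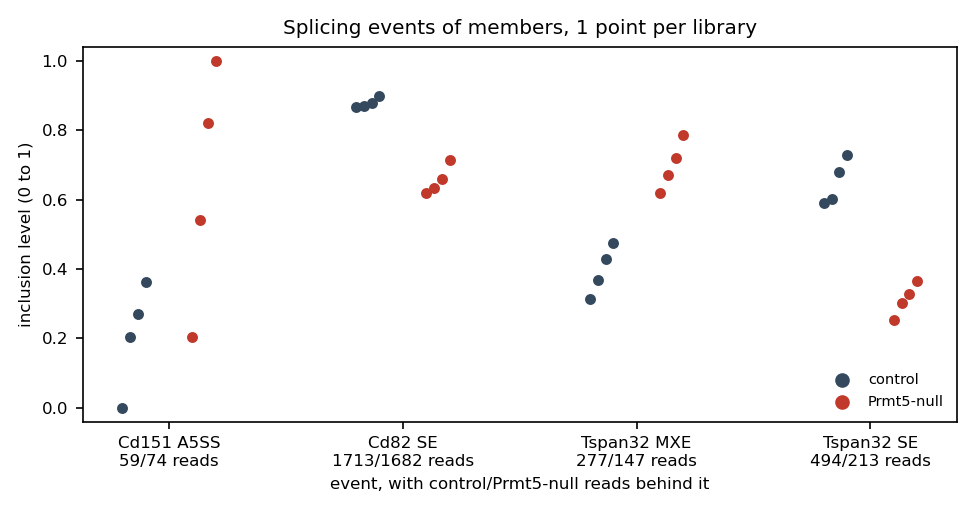
Inclusion level (0 to 1) of the 4 splicing events, with 1 point per library in rising order within each genotype and the reads behind each genotype under the name. SE is a skipped exon, MXE mutually exclusive exons and A5SS alternative 5′ splice sites. The genotypes are apart for both Tspan32 events and for Cd82, and overlap for Cd151.

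Of the 6 tetraspanins with CD names, Cd151 alone had an adjusted p under 0.05 in limma. Cd151, the close partner of the laminin-binding integrins α3β1 and α6β1, had 344, 305, 426 and 312 normalized counts in Prmt5-null and 238, 246, 216 and 284 in control libraries. The genotypes did not overlap, with a log2 fold change of 0.49 (SE 0.14, adjusted p = 0.0396 from limma), which is under 1.5-fold. When single libraries were omitted, the adjusted p was under 0.05 only without PRMT5-10618 (0.0336) or CTRL-10650 (0.0375), and reached 0.103 without CTRL-10597.

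Cd53 had 11091, 15735, 10813 and 13887 normalized counts in Prmt5-null and 15723, 16950, 16375 and 15489 in control libraries. Its control libraries were within a narrow range while PRMT5-10617 and PRMT5-10770 were low, and it did not pass the test (log2 fold change -0.34, SE 0.11, adjusted p = 0.0665 from limma). Its adjusted p was 0.0113 without PRMT5-10618 and 0.0495 with DESeq2, in both cases under 1.5-fold. Cd37 had 8288, 10379, 5590 and 7653 normalized counts in Prmt5-null and 6570 to 8950 in control libraries (log2 fold change 0.03, SE 0.16, adjusted p = 0.916 from limma). As for Cd53, PRMT5-10770 was the lowest Prmt5-null library and PRMT5-10618 the highest. Cd53 and Cd37 together were 48.3% to 62.3% of the tetraspanin sum per kb in Prmt5-null and 57.0% to 63.6% in control libraries.

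Cd63 and Cd9, tetraspanins found on most cell types and on their vesicles, had their highest values in PRMT5-10770 and PRMT5-10617. Cd63, the tetraspanin of late endosomes and exosomes, had 211, 96.0, 273 and 172 normalized counts in Prmt5-null and 68.1 to 127 in control libraries (log2 fold change 0.89, SE 0.29, adjusted p = 0.067 from limma). This value depended on the tool and on 1 library, with an adjusted p of 0.0483 with edgeR, 0.00913 with DESeq2 and 0.00699 from limma without PRMT5-10618, and with the experiment as a block it passed in 3 of 18 placements. Cd9 had 326, 194, 391 and 221 normalized counts in Prmt5-null and 186 to 280.0 in control libraries (log2 fold change 0.33, SE 0.22, adjusted p = 0.345 from limma). Tspan13 and Tspan31, among the most abundant, had log2 fold changes of 0.07 (adjusted p = 0.707) and -0.10 (adjusted p = 0.43 from limma). Of the exon bases of Tspan31, 29.2% lie in Cdk4 on the opposite strand.

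Of the 14 genes tested and not covered by the naming rule, none had an adjusted p under 0.05. Beside those already given, they were Tspan2, Tspan3, Tspan4, Tspan6 and Tspan9, with log2 fold changes from -0.18 to 0.53 and adjusted p values from 0.227 to 0.506 in limma. Tspan9 reached 0.0465 without PRMT5-10618.

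The 18 genes too low to be tested were 8 α subunits, 2 β subunits and 8 tetraspanins. In 6 of them (Itga11, Itgb6, Itgb8, Tspan10, Tspan12 and Tspan18) no library was above the limit that a count of 0 allows, which is 3 reads or 2.68 to 3.56 normalized counts depending on the library and covers counting error only. In 4 of them (Itgae, Itgax, Tspan11 and Tspan15) all 8 libraries were above that limit, and 7 of the 18 had a library above 10. Tspan11 had 8.17 to 15.2 normalized counts in Prmt5-null and 6.46 to 7.17 in control libraries, without overlap, and is named here because of its values. The collagen receptor chains Itga1 and Itga2 reached at most 7.11 and 8.30 normalized counts in any library.

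Genes for integrin adaptors and activators rose at about the rate of all genes. Of 30 genes for integrin adaptors and activators, 28 were tested, and 1 of these (3.57%, against 3.49% of all genes tested) rose, namely Parva, α-parvin, an actin-binding partner of integrin-linked kinase (92.9 to 139 normalized counts in Prmt5-null and 44.8 to 90.5 in control libraries, log2 fold change 0.78, SE 0.23, adjusted p = 0.0464 from limma). When single libraries were omitted, Parva was called only without PRMT5-10618 or CTRL-10650, and it was not called with edgeR. Its hematopoietic paralog Parvg was lower without reaching 1.5-fold (5741 to 6142 against 7122 to 8142 normalized counts, log2 fold change -0.35, SE 0.07, adjusted p = 0.00677 from limma), as was Slc3a2, the CD98 heavy chain that binds β tails (log2 fold change -0.44, SE 0.08, adjusted p = 0.00334). Tln1, the talin of leukocytes, and Fermt3, their kindlin, had log2 fold changes of -0.11 (adjusted p = 0.387) and -0.20 (adjusted p = 0.0885 from limma).

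The tetraspanin Cd81, which is not among the 57 genes, and its partner Cr2 were examined in a list of 12 tetraspanin partners and other tetraspanins, 10 of them tested. Cr2, the complement receptor CD21, rose (570.3 to 861 normalized counts in Prmt5-null and 295 to 445 in control libraries, log2 fold change 1.03, SE 0.16, adjusted p = 0.00137 from limma). Cd81 was higher without reaching 1.5-fold (12101 to 12744 against 8317 to 9645 normalized counts, log2 fold change 0.48, SE 0.07, adjusted p = 0.00122 from limma). No other gene of this list had an adjusted p under 0.05.

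Of 14 genes for other integrin ligands, 9 were tested, and 2 of these (22.2%, against 3.49% of all genes tested) rose, the matrix proteins Thbs1 (log2 fold change 0.80, SE 0.23, adjusted p = 0.0416 from limma) and Nid1 (log2 fold change 1.01, SE 0.28, adjusted p = 0.0339). Thbs1 had 2744 to 6294 normalized counts in Prmt5-null and 2031 to 3646 in control libraries, with overlap. Nid1 had 187.0 to 425.0 and 92.4 to 169.1, so its ranges came close without overlap. Thbs1 was called only without PRMT5-10618 or CTRL-10650 and not with DESeq2, and Nid1 only without PRMT5-10617, PRMT5-10770 or CTRL-10650, when single libraries were omitted. None of the genes tested in these 3 lists fell. Only 2.99% of all genes tested fell, so none in lists this short is near that share. Their median log2 fold changes were -0.01 for the adaptors, 0.24 for the tetraspanin partners and 0.35 for the other ligands, against 0.00 for all genes tested.

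Markers of fibroblasts, the lineage of the 40LB feeder cells, moved with several of these genes. Of 20 fibroblast markers, 18 were tested, and 4 of these (22.2%, against 3.49% of all genes tested) rose, namely Col1a2, Col3a1, Col5a2 and Sparc. All 18 had a log2 fold change above 0, with a median of 0.72. Of all 16250 genes tested, 8184 had a log2 fold change above 0. The sum of the 20 markers was 14516, 8384, 11795 and 10230 normalized counts in Prmt5-null libraries and 5602, 6779, 8080.4 and 9588 in control libraries. This is an overlap of 1 Prmt5-null library with the controls (two-sided exact permutation p = 0.0571), and none of the 20 was at 0 in all libraries. PRMT5-10617 and PRMT5-10770, the libraries with the most fibroblast marker RNA, were those with the highest Cd63, Cd9, Tspan33, Cd82, Cd151 and Itgb1. The same libraries had the lowest Cd53, Itgb2 and Itgal. They were not the highest pair for Itgb4, Itgb7 or Icam1, nor the lowest pair for Icam2, Tspan32 or Tspan5. These genes are examples picked by their values, and the part of feeder cell RNA in them was not tested.

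With the mean log2 level of the fibroblast markers added to the model as a covariate, Icam2 (log2 fold change -0.83, adjusted p = 0.011 from limma) and Itgb7 (1.00, adjusted p = 0.0394) were still called. Itgb4 (1.87, adjusted p = 0.0517) and Tspan32 (-0.66 in place of -0.81, adjusted p = 0.0507) narrowly missed the threshold. Tspan33 dropped to 0.32 (adjusted p = 0.255), Cd151 to 0.23 (adjusted p = 0.55), Vcam1 to 0.06 and Cd63 to 0.00. Itgam was called higher in this fit (2.15, adjusted p = 0.0344). The covariate is not independent of genotype, since the marker sum averaged 11231 normalized counts in Prmt5-null and 7512 in control libraries. Of the genes called outside the 57 in the lists of integrin and tetraspanin partners described above, Parva and Thbs1 moved to 0.19 and -0.07, and Nid1 and Cr2 to 1.39 and 1.31.

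**Figure D5:**
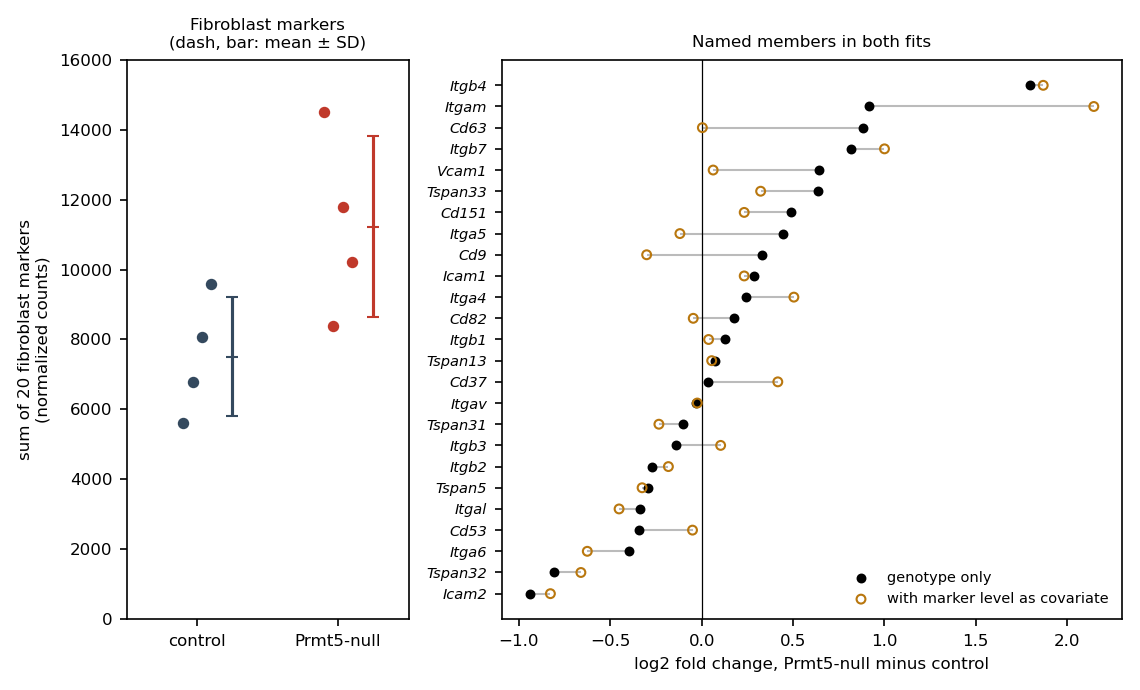
Left, sum of the normalized counts of 20 fibroblast markers in each library, with a dash and bar for the mean ± SD (n = 4). Right, log2 fold change (Prmt5-null minus control) of the 25 named genes that were tested, from the model with genotype only (filled) and with the marker level as a covariate (open). Cd63 goes from 0.89 to 0.00, whereas Icam2, Itgb7, Itgb4 and Tspan32 stay on their side of 0.

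Markers of B cells and of other cell types were examined as well. The 8 B cell markers summed to 161759 to 193272 normalized counts in Prmt5-null and 159997 to 184107 in control libraries, although Cd79a, a chain of the B cell receptor, fell (log2 fold change -0.74, adjusted p = 0.000327 from limma). Of 9 T and NK cell markers, only the kinase gene Lck was high enough to be tested, and it fell (303.6 to 462 against 660.2 to 780.3 normalized counts, log2 fold change -0.94, adjusted p = 0.000852 from limma). The sum of the 9, most of which is Lck, was 330.7 to 484.2 in Prmt5-null and 686.1 to 804.5 in control libraries, without overlap. Among 5 endothelial markers, Tek rose (11.1 to 22.4 normalized counts in Prmt5-null and 0 to 7.11 in control libraries, adjusted p = 0.0214 from limma), Cdh5 averaged 52.2 and 88.0 (log2 fold change -0.68, adjusted p = 0.0987), and their sum was 1033 to 1518 and 1048 to 1301. Of 5 plasma cell markers none was called, with Prdm1 and Xbp1 lower at an adjusted p of 0.0428 and 0.0305 from limma and under 1.5-fold, and Jchain, Irf4 and Sdc1 at log2 fold changes of -0.57, 0.19 and 0.16 with an adjusted p of at least 0.0764, and of 6 erythroid markers 1 was tested and not called. Their part in the results for the adhesion genes was not tested.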

How the data were processed

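Total RNA was depleted of ribosomal RNA, made into stranded libraries and sequenced as paired ends. The authors trimmed reads with Trimmomatic 0.32, aligned them to mm10 (GRCm38) with STAR 2.3.0e and counted uniquely mapped reads on the exons of Ensembl genes with featureCounts 1.4.4; the strand setting is not given in the sources used here. They deposited a normalized signal, each count divided by the DESeq2 1.14.1 size factor of its library. In the deposited splicing tables, made with rMATS from untrimmed reads, inclusion is a fraction, and columns of the authors' own test statistics (p-values, FDR values and inclusion differences) were not used. The tables number the genotypes 1 and 2.

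Every deposited signal value was a whole number of reads (100% of values, tolerance 0.001), so depth was recovered. Genotypes were compared with limma 3.58.1 (lmFit, eBayes with a trend) in R 4.3.3 with a pseudocount of 1, on genes with a mean of at least 10, with Benjamini-Hochberg adjustment. Alternatives used edgeR 4.0.16, DESeq2 1.42.0, other pseudocounts (0.5 and 5), filters, thresholds and scaling, no trend, a fibroblast covariate, and the leaving out of each library. The code was checked on simulated counts. Replicates were separate biological samples. They came from 2 experiments. The design text assigns these by sample numbers that the labels do not carry, so experiment was not a term. An alternative chosen after seeing the data added it as a block in all 18 balanced placements. Exon lengths and overlaps came from GENCODE annotation of GRCm38.

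The genes and lists were chosen with earlier results of these data known. Named were all genes called, the 10 highest in control libraries, 23 with known roles in B cells, those with a splicing event, those with an adjusted p under 0.05 below 1.5-fold, and at most the 5 largest called changes of each other list. Icam4, Icam5, Itga2b, Itga3, Itga8, Itga10, Itgad, Itgb5, several Tspan genes, and list genes that were not called fall outside this rule.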

Additional observations from a re-analysis of the deposited data

Results flagged for a closer look

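In the 54 groups of 4 libraries formed by the 27 named genes and both genotypes, 1 library stood far from the others. Itgae, the αE chain, had 12.96 normalized counts in PRMT5-10617, whereas the other Prmt5-null libraries had 5.10 to 5.61, a gap of 0.936 of the whole range, past Dixon's 95% limit. The level is low, and chance alone puts about 1 in 20 groups past it.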

How the results depend on the processing

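The 3 genes called higher and 2 called lower were unchanged in number with either pseudocount, without a filter on low values, with quantile normalization, without the trend and at an adjusted p below 0.01. The number called higher was 5 with DESeq2 (Cd63 and Itga2b added), 4 with edgeR (Cd63 added), 5 with no minimum fold, 2 with a mean above 50 (where Itgb4 and Itgam were not tested) and 2 with the fibroblast covariate. With a library left out it ranged from 2 (without PRMT5-10770) to 5 (without PRMT5-10618). The number called lower was 4 with no minimum fold, 1 with the covariate (Icam2) and 2 whichever library was left out. The 4 genes called in the lists of adaptors, partners and other ligands became 1 at an adjusted p below 0.01, without the trend and with the covariate, 7 with no minimum fold, and from 1 (without PRMT5-10771 or CTRL-10370, CTRL-10596 or CTRL-10597) to 5 (without PRMT5-10618) with a library left out, with 2 without PRMT5-10617 or PRMT5-10770. Cr2 was called in every one of these fits. With the experiment as a block, over its 18 placements, 3 to 5 genes were called higher, 2 lower in each, and 1 to 6 in the lists. The share of all genes called in each of these fits is not given here, so the counts do not compare these genes with the rest. The causes were not tested.

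With the covariate the sign of the log2 fold change turned for Cd82 (-0.046), Cd9 (-0.30), Itga5 (-0.12) and Itgb3 (0.10). It turned for Cd37 without PRMT5-10618 (-0.10) or CTRL-10650 (-0.036), within a range from -0.10 to 0.19 over the omitted libraries, and for Itgav without PRMT5-10617 (0.004), within a range from -0.07 to 0.004, all of them uncalled in every fit. Of 523 values of single genes under the alternatives, 502 kept sign and call. The ratio of Cd53 to Cd37 in control libraries was 4.30 ± 0.39 per kb and 2.13 without division by length.

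No paired analysis was possible because the replicate numbers are part of the library names and no number occurs in both genotypes. The 18 genes with a mean under 10 normalized counts rest on few reads, and without the filter on low values none of them was called.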
